A study of Drosophila melanogaster with 3 samples.

Results

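Transposon transcripts and the genes that silence transposons were measured in homozygous kep1 mutant males and w1118 wild-type males of Drosophila melanogaster, on spotted cDNA arrays. The probes described here are the 3 that the array layout names with a transposon identifier, which are all the probes so named, and the 6 whose gene number belongs to a listed gene of the piRNA pathway, together 9 of 11755 probes on the array. They stand for 8 of 10 listed elements and genes, out of 9189 named elements and genes on the array. The transposon probes are TE20317, annotated as the retrotransposon springer, TE19622, annotated as the pol gene of the retrotransposon HMS-Beagle, and TE19206, for which the layout gives no element name. The transposon probes were chosen with their ratios known, whereas the genes were listed by function. Of 7 listed genes, piwi, aub, vas, armi and zuc had a probe, with 2 for piwi, and no spot used here carried the gene number of AGO3 or spn-E, which were not analysed here. The gene table used for names places piwi, aub, vas and zuc on chromosome arm 2L and armi on 3L.

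Transposons of the springer and HMS-Beagle kind are retrotransposons with long terminal repeats, which are copied through an RNA and carry gag and pol genes like those of retroviruses. The level of their transcripts depends both on how many copies a strain holds and on how well those copies are silenced. In flies, silencing in the gonads rests on piRNAs, short RNAs bound by Argonaute proteins of the PIWI clade, and silencing in other tissues rests largely on the siRNA pathway. Kep1, the protein lacking in the mutant, binds RNA and belongs to the STAR proteins, which act in RNA processing.

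Each of 3 arrays set 1 mutant RNA, labelled with Cy5 and read in channel 2, against 1 wild-type RNA, labelled with Cy3 and read in channel 1. The flies were 3 to 4 days old and the series' design text says that heads were used, which the sample labels do not repeat. Testis genes also gave signal on these arrays, as given below. The labels name neither the kep1 allele nor the genetic background of the mutant stock, so the loss of kep1 and other differences between the strains, transposon insertions included, cannot be told apart. Wild type carried the same dye on every array, so dye and genotype cannot be told apart for any 1 probe. The rearing and pooling of the flies is not given in the labels, and p-values measure only the spread between the 3 RNA pairs, which may be technical.

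The arrays were deposited as foreground and local background intensities of each spot. Blank spots, which carry no DNA, gave the level below which a probe's signal cannot be distinguished from an empty spot, taken as the 95th percentile of their foreground. That percentile lay between 112 and 446 units over the 6 channels. It was lowest on array 2, at 112 units in wild type and 128 in the mutant, against 312 to 446 on arrays 1 and 3. A signal over it on array 2 only is therefore not necessarily brighter than on the other arrays. In at least 1 channel on at least 2 arrays, 51.2% of all probes exceeded it. Of 11 measured head markers, which serve the eye and neurons (ninaE, Rh3, Rh4, Rh6, ninaC, trp, norpA, elav, nSyb, Syt1 and brp), 10 exceeded it. The kep1 probe itself, listed under its current symbol qkr58E-3, stood at log2 ratios (mutant over wild type) of -1.59, -1.35 and -2.13. Its mutant signal exceeded the blank level on array 2 only, so the ratios of arrays 1 and 3 are against a level not distinguished from empty spots. After background correction and loess normalization within each array, the fit over all probes called 17 of 11744 tested probes at an adjusted p under 0.05 in limma, or 0.145%.

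The springer probe was far brighter in the mutant channel on every array. In wild type its foreground was 414, 595 and 561 units on arrays 1, 2 and 3, and in the mutant it was 4285, 5325 and 8272. The lowest mutant value thus lay above the highest wild-type value, and both channels exceeded the blank level on all 3 arrays. On arrays 1 and 3 the wild-type values lay close to that level, which was 345 and 446 units there. They were brighter than 97.4% and 97.5% of the blank spots. The size of the ratios thus rests on a wild-type signal near that of bright blank spots on those arrays. The uncorrected ratios of these intensities were 10.3, 8.95 and 14.7. The normalized log2 ratios were 3.40, 3.25 and 4.00, a mean of 3.55 ± 0.40 (SD, n = 3 arrays), or 11.7-fold. The 2 spots of the probe differed by at most 0.25 in log2 ratio on any array. Since this ratio was among the values that chose the probe, it is given as a description with no test. Of the 3 transposon probes 1, springer, was among the probes called over the whole array, and nothing is read from that count for the same reason.

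**Figure D1:**
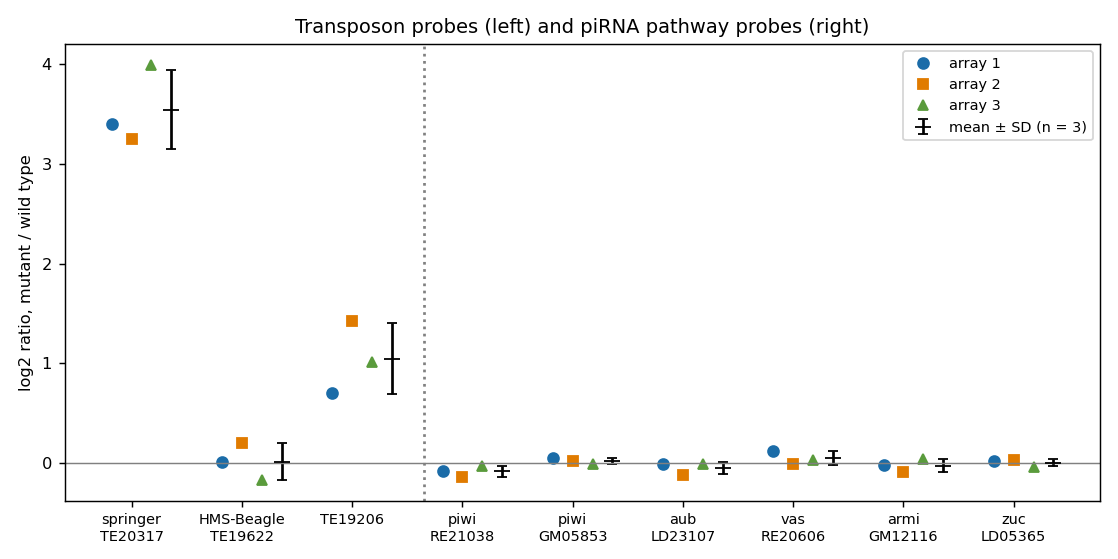
Log2 ratio of mutant over wild type (vertical axis) for the 3 transposon probes and the 6 piRNA pathway probes (horizontal axis), with 1 symbol per array and a bar for the mean ± SD of 3 arrays. The springer probe lies between 3.25 and 4.00, TE19206 between 0.71 and 1.42, and the piRNA pathway probes between -0.14 and 0.13.

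Over all 11744 tested probes springer had the highest mean ratio. It ranked 1 on arrays 2 and 3 and 2 on array 1, where Lsp2, which encodes a larval storage protein, stood at 3.83. The clone on the springer spots, SD01615, comes from a library whose names begin with SD and which was made from cultured Schneider cells, a cell line in which many retrotransposons are abundant. The 829 tested probes from that library other than the 2 transposon clones had a median log2 ratio of -0.0033, a 5th percentile of -0.25 and a 95th percentile of 0.23. The highest of them had a mean of 1.26. Since springer was chosen with its ratio known, nothing is read from its rank or from its place above these probes.

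The named probes outside the list whose 3 ratios lay nearest to those of springer, by Euclidean distance over the 3 arrays and out of 10471 candidates, were Lsp2 (distance 2.17), CG9360 (2.87), sals (3.21), Kmn1 (3.22) and the odorant-binding protein gene Obp99b (3.46). Each had a lower mean than springer, as did every other tested probe, so nothing is read from that. Other probes of sals (GH01093, mean 0.13) and Obp99b (LP06572, mean 0.94) had lower means than the probes named, 1.80 for sals and 1.62 for Obp99b. Lsp2, the nearest, had ratios of 3.83, 2.13 and 2.18 and thus was highest on array 1, whereas springer was highest on array 3. These distances rest on 3 values per probe and are a description of the arrays.

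HMS-Beagle, also a retrotransposon with long terminal repeats and also represented by a Schneider cell clone (SD01935), gave nearly equal signal in both channels. Its foreground was 607, 744 and 754 units in wild type, against 671, 731 and 658 in the mutant, above the blank level in every channel. The ranges overlapped, and the mutant was higher on array 1 and lower on arrays 2 and 3 before normalization. The normalized log2 ratios were 0.01, 0.20 and -0.17, a mean of 0.01 ± 0.18 (SD, n = 3 arrays).

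The third transposon probe, TE19206, was brighter in the mutant channel on every array, by less than springer. Its foreground was 202, 185 and 227 units in wild type, against 438, 559.8 and 614 in the mutant. The groups did not overlap. The wild-type signal exceeded the blank level on 1 array only, array 2, while the mutant signal exceeded it on all 3. The log2 ratios were 0.71, 1.42 and 1.02, a mean of 1.05 ± 0.36 (SD, n = 3 arrays), and 0.17% of all tested probes had a higher mean. The uncorrected ratios of the intensities were 2.17, 3.03 and 2.71, and the mean log2 ratio was 1.51 without background subtraction. Since the wild-type level was measured over blank spots on 1 array only, no fold is given. This probe was also chosen with its ratio known, and no test is given.

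The clone behind TE19206, GH23730, comes from an adult head library. The layout also gives it an older gene number, CG10611, which the gene table lists as a synonym of fbp, the gene of fructose-1,6-bisphosphatase, an enzyme of gluconeogenesis. A separate fbp probe (clone GH01546, chosen after its values were seen) had ratios of 0.41, 0.33 and -0.0048, with a mean of 0.25 ± 0.22 (SD, n = 3), and did not pass (limma adjusted p = 0.356). Its foreground was 424, 546 and 622 units for wild type and 631, 607 and 603 for the mutant, so the groups overlapped. On each array the ratio of TE19206 was higher than that of the fbp probe, by a margin that was smallest on array 1. Since TE19206 was chosen with its ratio known, nothing is read from this. The probes also differed in brightness, since fbp exceeded the blank level in both channels on every array. Whether the TE19206 probe detects transposon RNA, fbp RNA or both was not tested.

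As a description, the ratios of the 3 probes with a transposon identifier differed from each other. Springer and TE19206 were higher in the mutant channel on all arrays, and HMS-Beagle was higher on 2 of them and lower on the third after normalization. A spotted cDNA binds RNA from every copy of its element and does not tell which insertion was transcribed. In bulk RNA, more cells that express an element and more RNA per cell cannot be told apart.

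**Figure D2:**
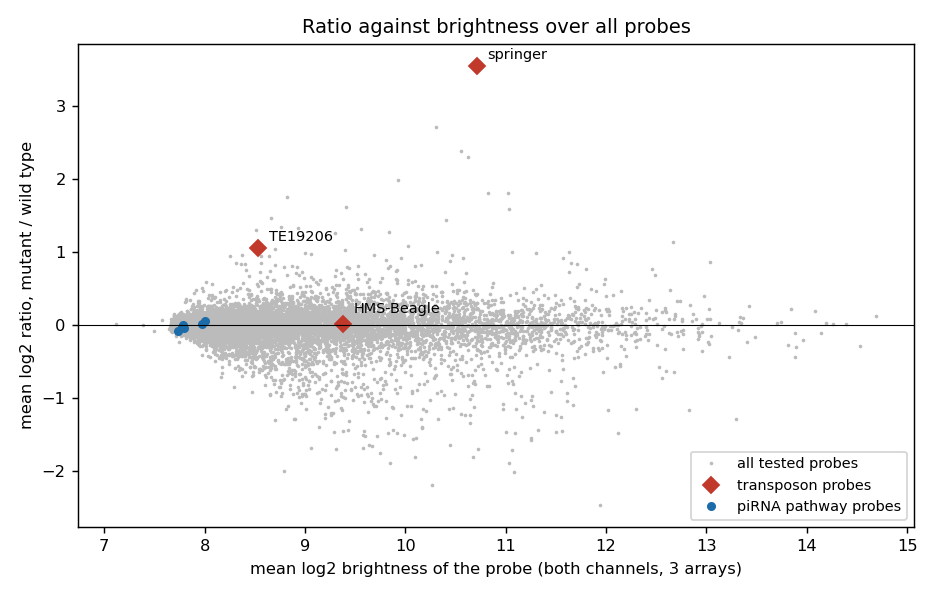
Log2 ratio (mutant / wild type) averaged over 3 arrays (vertical axis) against mean log2 brightness over both channels and 3 arrays (horizontal axis) for all 11744 tested probes, in grey, with the transposon probes as red diamonds and the piRNA pathway probes as blue circles. Springer has the highest ratio of all probes at 3.55, and the piRNA pathway probes lie at the dim end.

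None of the piRNA pathway genes with a probe passed the test, and all of their signals lay near those of blank spots in both genotypes. Over the 6 probes the mean log2 ratios ranged from -0.08 to 0.05, with SDs from 0.03 to 0.07 and limma adjusted p-values from 0.559 to 0.986. None of the 6 passed at an unadjusted p under 0.05 either, against 15.5% of all probes, and 2 of them, aub and the dimmer piwi probe, had the same sign on all 3 arrays, against 39% of all probes. The ratios depended on the background correction. Without background subtraction, with plain subtraction and in the deposited table, piwi (RE21038) stood at -0.35, -0.37 and -0.28 and aub at -0.26, -0.24 and -0.26. Neither passed the adjusted threshold there. Without and with plain subtraction, piwi (RE21038) had an unadjusted p under 0.05 (limma adjusted p = 0.260 and 0.223), the only 1 of the listed genes. The median of the 6 probes, -0.01, was close to that of all probes (-0.0027). Of 36 foreground values, 6 probes in 2 channels on 3 arrays, 4 exceeded the blank level, all on array 2, where that level was lowest. The median value was brighter than 65.1% of the blank spots of its channel. No probe exceeded the blank level on 2 or more arrays.

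**Figure D3:**
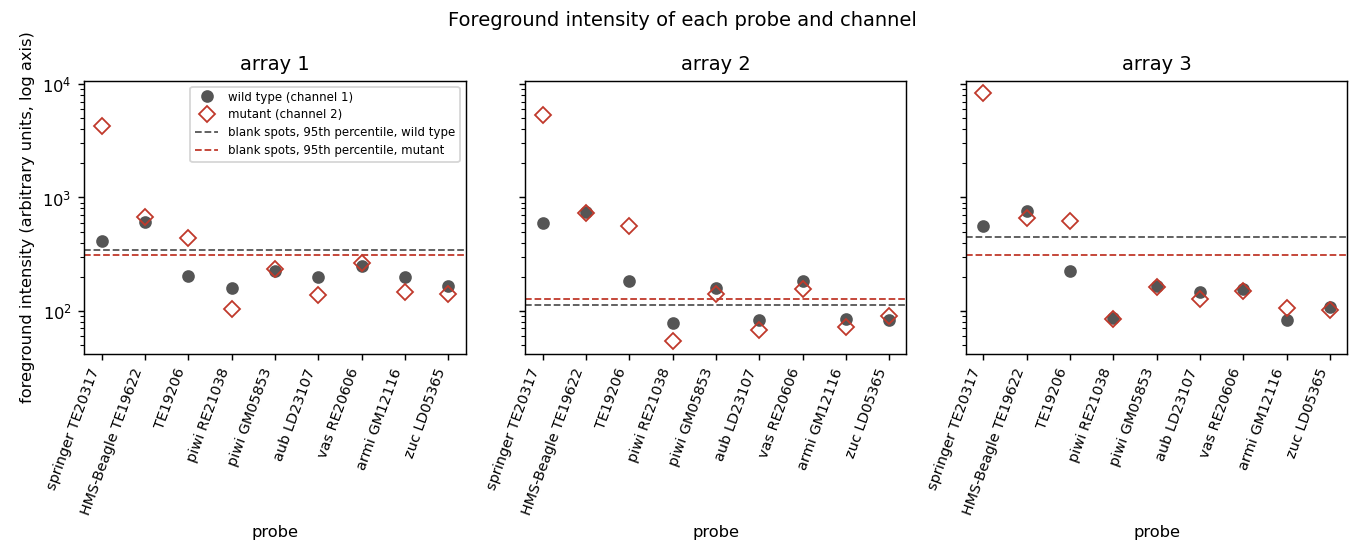
Foreground intensity (vertical axis, log scale, arbitrary units) of each transposon and piRNA pathway probe (horizontal axis) in wild type (grey circles) and mutant (red diamonds), in 1 panel per array, with dashed lines at the 95th percentile of blank spots in each channel. The piRNA pathway probes lie between 53.8 and 262 units, above the lines only for piwi (GM05853) and vas on array 2.

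Piwi is the PIWI protein of the nucleus, where it directs the silencing of transposon transcription in germ cells and in the somatic cells of the gonad. Its probe GM05853, a clone from an ovary library, had a foreground of 225, 158 and 165 units in wild type, against 233, 140.4 and 161 in the mutant. These values overlapped throughout, and only those of array 2 exceeded the blank level. The log2 ratios were 0.04, 0.02 and -0.01, a mean of 0.02 ± 0.03 (SD, n = 3; limma adjusted p = 0.911). The other piwi probe, RE21038, was dimmer, with 158, 77.4 and 86.9 units in wild type, against 105, 53.8 and 85.4 in the mutant. It was lower in the mutant on each array, with log2 ratios of -0.08, -0.14 and -0.03, but never exceeded the blank level, and its mean of -0.08 ± 0.06 (SD, n = 3) did not pass (limma adjusted p = 0.559). The 2 piwi probes differed in sign, and neither passed.

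Aubergine, encoded by aub, is the cytoplasmic PIWI protein that cleaves transposon transcripts in germ cells. Its probe (LD23107, an embryo clone) read 198, 83.7 and 147 units in wild type, against 137, 68.1 and 128 in the mutant, always below the blank level. The mutant value was the lower one on each array, yet the ranges over arrays overlapped. The log2 ratios were -0.01, -0.12 and -0.01, a mean of -0.05 ± 0.06 (SD, n = 3; limma adjusted p = 0.756).

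Vasa, the RNA helicase encoded by vas, acts in the perinuclear nuage of germ cells, where PIWI proteins exchange cleaved transcripts, and is a standard marker of those cells. Its probe (RE20606) read 251, 183 and 157 units in wild type, against 262, 155 and 150.2 in the mutant, with only the array 2 values above the blank level. The log2 ratios were 0.13, -0.0077 and 0.03, a mean of 0.05 ± 0.07 (SD, n = 3; limma adjusted p = 0.765), and the groups overlapped.

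The remaining genes, armi and zuc, act in the making of piRNAs. Armitage is a helicase that brings precursor RNAs to mitochondria, and Zucchini is the nuclease at the mitochondrial surface that cuts them. The armi probe (GM12116) read 199, 84.1 and 83.1 units in wild type, against 146, 71.8 and 106 in the mutant, with log2 ratios of -0.02, -0.09 and 0.04 (limma adjusted p = 0.878). The zuc probe (LD05365) read 167, 83.3 and 109 units in wild type, against 139.8, 89.6 and 101 in the mutant, with log2 ratios of 0.01, 0.03 and -0.04 (limma adjusted p = 0.986). Neither probe exceeded the blank level in any channel, and neither had 1 sign on all arrays.

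The 95% intervals of the 6 mean log2 ratios lay between -0.23 and 0.20. These intervals do not bound a change of the transcripts themselves. Where both channels sit at the level of empty spots, the gene's own signal cannot be separated from that of an empty spot, and the offset added in the background correction draws such ratios toward 0. Over the whole array the median size of the mean log2 ratio was 0.04 for the 5724 tested probes that did not exceed the blank level on 2 arrays and 0.13 for the 6020 that did, and all 17 called probes were among the latter. Before correction the ratios of foregrounds for the 6 probes ranged from 0.66 to 1.27. Whether the higher springer signal went with a change of piwi, aub, vas, armi or zuc was thus not detectable at this signal.

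The wider machinery was examined in 6 lists of 56 genes, the listed ones included, of which 50 were measured, each by its brightest probe. None passed over all probes in limma, where 0.145% of all probes did, and 3, CtBP, loqs and wde, passed without adjustment (p under 0.05), against the 15.5% of all probes. The median of their mean log2 ratios was -0.02. Of these 50 genes 22 exceeded the blank level on at least 2 arrays, or 22 of the 45 that are not among the listed piRNA genes, so for those genes a ratio could be measured.

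Among genes of the nuage and of the exchange of cleaved transcripts, 0 of 9 passed and 2 exceeded the blank level. The Tudor-domain gene krimp stood at -0.11 ± 0.06 and mael, which acts in transcriptional silencing and in the germ plasm, at -0.06 ± 0.02 (SD, n = 3). Both were dim, and their limma adjusted p-values were 0.473 and 0.683. Among genes of piRNA biogenesis 0 of 11 passed and 3 exceeded the blank level. Of these, Nbr, the exonuclease that trims the ends of small RNAs, was bright enough to measure and stood at -0.11 ± 0.07 (limma adjusted p = 0.479), while the co-chaperone gene shu (-0.06 ± 0.05) was dim.

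Genes of piRNA cluster transcription and export included the member with the largest ratio in size. CtBP, a transcriptional corepressor with many other roles, had log2 ratios of -0.40, -0.39 and -0.32 on its brightest probe, a mean of -0.37 ± 0.04 (SD, n = 3; limma adjusted p = 0.0959), and did not pass. At an adjusted p under 0.1, which 2.14% of all probes met, CtBP was the only 1 of the 50 genes. Its other probe stood at 0.02 ± 0.18, so the probes of this gene disagreed. The RNA export gene tho2 stood at -0.14 ± 0.04 (limma adjusted p = 0.329). In this list 0 of 10 genes passed and 6 exceeded the blank level. The gene of the cluster-bound HP1 protein Rhino, rhi, did not exceed it on any array.

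The nuclear effectors, which carry out silencing at the chromatin once Piwi has found its target, had 8 of 14 members over the blank level and 0 past the threshold. The zinc finger gene sov stood at 0.24 ± 0.21 on its brightest probe and at -0.03 ± 0.09 on its other probe, and nxf2, which links Piwi to target RNA, at 0.21 ± 0.18. Their limma adjusted p-values were 0.345 and 0.350, and nxf2 exceeded the blank level on 1 array only. The gene wde, over the blank level on all 3 arrays, had ratios of 0.17, 0.10 and 0.29 and was the only member of this list with an unadjusted p under 0.05, but did not pass (limma adjusted p = 0.276). The genes wde, rhi, r2d2 and AGO2 and the single tissue markers below were singled out after their values were seen.

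The siRNA pathway, which silences transposons outside the gonads, gave 0 of 4 genes past the threshold, 3 of them over the blank level. The double-stranded RNA nuclease gene Dcr-2 had ratios of 0.24, 0.66 and 0.07, a mean of 0.32 ± 0.30 (limma adjusted p = 0.348), and exceeded the blank level on 1 array. Its partner genes loqs (-0.22 ± 0.13) and r2d2 (-0.16 ± 0.18) and the Argonaute gene AGO2 (-0.13 ± 0.12, with -0.05 ± 0.05 on its other probe) had negative means, with limma adjusted p-values from 0.253 to 0.488. Neither sign was shared by all 4 genes.

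**Figure D4:**
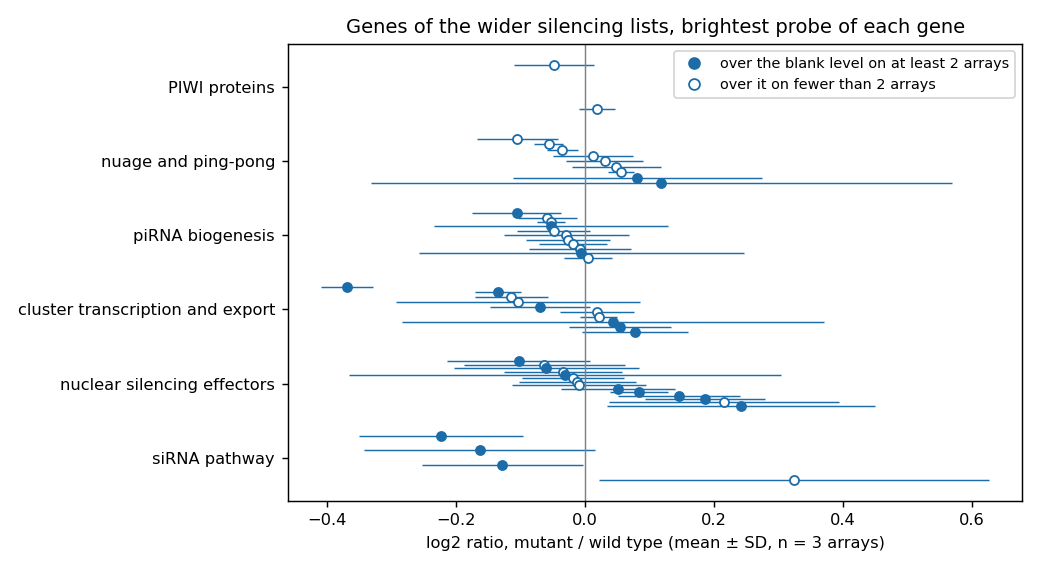
Log2 ratio (mutant / wild type), as the mean and SD of 3 arrays (horizontal axis) for the brightest probe of each of 50 measured genes, grouped by list (vertical axis), with filled circles for genes over the blank level on at least 2 arrays. CtBP at -0.37 and Dcr-2 at 0.32 are the extremes, and neither passed the test.

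Markers of gonads, the main site of piRNA gene expression, were read beside these values. Of 9 measured germ cell genes (bam, bgcn, osk, gcl, ovo, otu, zpg, orb and stwl), 2, ovo and orb, exceeded the blank level on at least 2 arrays, the median log2 ratio over all 9 was -0.0035, and the summed foreground was 1883 to 4095 units in wild type and 2013 to 3181 in the mutant. Of those over the blank level, ovo stood at -0.04 ± 0.16 without a common sign, and orb was lower in the mutant on each array (-0.14, -0.30 and -0.09, limma adjusted p = 0.320) and did not pass. The germ cell genes nos and pgc were not measured. Of 17 measured testis genes, 12 exceeded the blank level, and 1, loopin-1, fell (-1.64 ± 0.21, limma adjusted p = 0.0347). Their median was -0.54, 11 of them were lower and 0 higher without adjustment (p under 0.05), where 15.5% of all probes passed in either direction, and their summed foreground was 21871 to 25703 units in wild type and 11559 to 13797 in the mutant. The summed testis signal was thus lower in the mutant channel on every array, as uncorrected intensity compared between 2 dyes. The testis genes mia, aly, comr and topi, with means from -0.06 to -0.01, did not exceed the blank level on 2 or more arrays. Of the 11 head markers none passed, 3 were higher and 0 lower without adjustment (p under 0.05), and the median was 0.13. Their summed foreground was 21710 to 33040 units in wild type and 27783 to 31433 in the mutant. In wild type this range overlapped that of the testis genes. Whether the RNA held tissue other than heads was not tested. The rhodopsin genes Rh4 (0.81 ± 0.12, limma adjusted p = 0.0626) and Rh6 (0.58 ± 0.16, limma adjusted p = 0.0955) and the synaptic gene Syt1 (0.22 ± 0.11, limma adjusted p = 0.241) had positive ratios on all 3 arrays. Other probes of Syt1 had means of 0.10 and 0.03. The other measured head markers, ninaE, Rh3, ninaC, trp, norpA, elav, nSyb and brp, had no common sign. The part of tissue content in the transposon ratios was not tested.

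Of 5 measured transcripts abundant in females, 2 were higher in the mutant channel on all 3 arrays and the others had no common sign. Over all probes, 39% had the same sign on all 3 arrays, in either direction, so nothing is read from this count. The yolk protein gene Yp3 had log2 ratios of 0.78, 2.39 and 0.64, a mean of 1.27 ± 0.98 (SD, n = 3; limma adjusted p = 0.245), and the fat body gene fit had 0.31, 2.93 and 1.17, a mean of 1.47 ± 1.33 (limma adjusted p = 0.305). Neither passed, though both had an unadjusted p under 0.05 in limma, as had 15.5% of all probes. The yolk protein gene Yp1 had ratios of -2.54, 2.96 and -0.78, and the list's median over 5 genes was -0.08, 2.39 and 0.01 on arrays 1, 2 and 3. TE19206 had the same order over the arrays as Yp1, Yp2, yl, fit and the list's median, lowest on array 1 and highest on array 2. Of these, Yp2 and yl did not exceed the blank level on 2 or more arrays. For yl the ratios of arrays 2 and 3 were nearly equal (0.0129 and 0.0125), and the list's median is drawn from the same genes. Yp3 did not share the order and was lowest on array 3, and springer was lowest on array 2. With 3 arrays few orders are possible, and the share of all probes with this order was not counted. The order is a description from which nothing is read, and the part of these transcripts in the TE19206 ratio was not tested.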

How the data were processed

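Total RNA of 3 mutant and wild-type pairs was labelled and hybridised on 2-colour cDNA arrays, per the labels' protocols. The authors deposited scanner tables whose columns, per the file headers, are the foreground and local background intensity of each spot in each channel, and whose values are linear and not background-subtracted. The image software is not given in the sources used here. The deposited log2 table equalled log2 of channel 2 over channel 1 foreground to within 5.32e-05, without centring (medians -0.08, -0.20 and -0.04). The direction of each ratio follows the channel numbers in the labels.

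Of 27648 spots, 23510 carried 11755 probes in duplicate. Control (854), blank (1736) and failed (1548) spots had weight 0, and 22, 76 and 26 spots marked to be ignored were left out. Gene numbers were updated to symbols for 10490 probes through the RefSeq table (Release 6 plus ISO1 MT), used for names and chromosome arms only. Intensities were corrected by normexp (offset 50), normalized by loess within arrays and averaged over duplicates, in limma 3.58.1 under R 4.3.3. Tested probes had at least 1 channel more than 2 background SDs above local background, on 2 or more arrays. The mean log2 ratio was tested against 0 (two-sided, Benjamini-Hochberg over all probes, threshold 0.05). The number of arrays limits the precision. The steps were run on simulated data with changes placed only outside the dimmest probes, and no result given here rests on that outcome. Replicate numbers follow record order.

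Members and lists were chosen with earlier results of these data known. Named by rule were every listed probe, kep1, from each silencing list the members that passed, and otherwise the 2 of largest mean ratio among those of 1 sign on all arrays, and the 5 named probes nearest to springer. Other names were chosen after their values were seen. Alternatives were other background corrections, normalizations, filters, variance models and thresholds, the deposited log2 values, and leaving out each array. No sequence tables were used here.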

Additional observations from a re-analysis of the deposited data

How the results depend on the processing

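The mean log2 ratio of springer ranged from 3.32 to 3.70 over 13 alternatives, always within 1 SD of 3.55, and both ends came from leaving out 1 array. TE19206 moved to 1.51 without background subtraction, 1.54 with plain subtraction and 1.495 with the deposited log2 values. HMS-Beagle stayed within 1 SD of its value, and its sign changed with print-tip loess (-0.01), scale normalization (-0.02) and without array 2 (-0.08). As a description, since these probes were chosen with their ratios known, 1 of the 3 transposon probes passed in limma at the main setting, 2 passed without background subtraction, with plain subtraction, the deposited log2 values, the blank-spot filter, robust variances or a threshold of 0.1, and 0 with scale normalization (2 at an unadjusted p under 0.05). Leaving out 1 array gave 0 to 1, with 0 without array 1 or array 3 and 2 at an unadjusted p under 0.05 each time. No piRNA probe passed under any alternative in limma (lowest adjusted p = 0.223, with at most 1 at an unadjusted p under 0.05), and the blank-spot filter tested none of them. Piwi (RE21038) moved from -0.08 to -0.35 without background subtraction, -0.37 with plain subtraction and -0.28 with the deposited values, and aub from -0.05 to -0.26, -0.24 and -0.26. Ratios near 0 changed sign for aub (0.0025) and armi (0.024) with median centring, for armi (0.0200) with the deposited values, and for zuc with print-tip loess (-0.0036) and scale normalization (-0.0021). With 1 array left out, armi ranged from -0.058 to 0.0072 and zuc from -0.012 to 0.024. Of the wider silencing genes, 1 (CtBP) passed at a threshold of 0.1 and 0 under the other alternatives (1 to 7 at an unadjusted p under 0.05). Over all probes, 17 passed at the main setting, 433 without background subtraction, 390 with plain subtraction, 70 with median centring, 0 with scale normalization (1830 at an unadjusted p under 0.05), 407 with the deposited values, 367 with the blank-spot filter, 285 with robust variances and 251 at a threshold of 0.1. Leaving out 1 array gave 0 to 100, with 0 without array 1 (1331 at an unadjusted p under 0.05) or array 3 (1193) and 100 without array 2. The causes of these moves were not tested. Each array pairs both genotypes in 1 ratio, so the test of the mean ratio against 0 is itself the paired analysis.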
